A study of Mus musculus with 8 samples.

Results

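Foxp3 CUT&Tag signal was described at the listed binding sites of 4 TNF receptor family genes that mark Treg cells, namely Tnfrsf9, Tnfrsf4, Tnfrsf18 and Tnfrsf1b. Each site was given to the protein-coding gene that held its centre within the gene body or within 5 kb of it, and otherwise to the nearest gene end within 100 kb. By this rule 5 of the 5521 listed sites belonged to the 4 genes, 3 of them to Tnfrsf9 and 2 to Tnfrsf1b. Tnfrsf4 and Tnfrsf18 had no site. No expression was measured, so the genes and the Treg label of the cells could not be checked against marker transcripts.

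CUT&Tag uses an antibody to bring a transposase to chromatin, which then cuts and tags the DNA beside the bound protein. The cells were freshly sorted CD4+hCD2+GFP- Treg cells of C57BL6/J mice from lymph nodes and spleen, and the labels give no ages. WT cells were of genotype Foxp3WT-IRES-hCD2/Foxp3-IRES-GFP and R397W cells of genotype Foxp3R397W-IRES-hCD2/Foxp3-IRES-GFP. Every group thus carried a Foxp3-IRES-GFP allele, and the sort took cells that used the IRES-hCD2 allele. R397W is a missense change in Foxp3. Each genotype had 2 libraries with anti-Foxp3 and 2 with normal rabbit IgG, the background antibody, 8 libraries in 4 groups in all. The labels do not say whether numbered libraries came from separate mice, so p-values measure the spread between libraries, which may be technical. The titles give the Foxp3 and IgG libraries of a number the same sample name, which may mean the same cells, but the labels do not say so, and pairs are by number only.

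TNF receptors are cell surface proteins that bind trimeric ligands of the TNF family and, through TRAF adaptor proteins, turn on NF-kB and MAP kinase signalling. Tnfrsf9 encodes 4-1BB (CD137), Tnfrsf4 encodes OX40, Tnfrsf18 encodes GITR and Tnfrsf1b encodes TNFR2. All of them are costimulatory receptors that Treg cells carry, more so after activation, and effector Treg (eTreg) cells are the activated form of the lineage. Foxp3, a forkhead transcription factor, and BATF, an AP-1 family factor that the study's title pairs with it, both act on genes of the effector Treg programme.

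The authors' site classes placed 1 eTreg-specific site upstream of each of the 2 genes that had sites, and no cTreg-specific site at either. Upstream of Tnfrsf9 the eTreg-specific site (mm10, chr4:150915273-150915673) was centred 4682 bp before the first annotated start, and the next gene, Park7, was 5552 bp away. Tnfrsf9 also held 2 common sites inside its body. The first (chr4:150924320-150924720) was centred 4365 bp after the first start and 3479 bp before a second one, and the second (chr4:150937928-150938328) lay 17973 bp after the first start. Upstream of Tnfrsf1b, which is read from the minus strand, the eTreg-specific site (chr4:145254428-145254828) was centred 7758 bp before the start and 12504 bp from Tnfrsf8, another receptor gene of the family. A common site (chr4:145210645-145211045) was centred 1523 bp beyond the other end of Tnfrsf1b. Each of the 5 sites was 400 bp wide. Exons and introns were not analysed here.

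**Figure D1:**
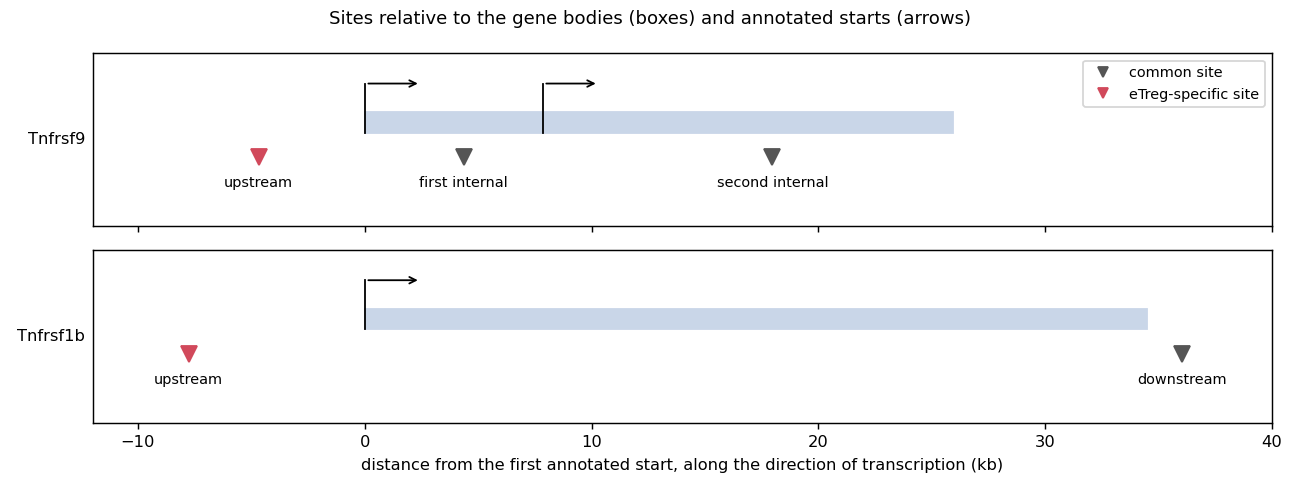
Positions of the 5 sites (triangles, coloured by the authors' class) relative to the gene bodies of Tnfrsf9 and Tnfrsf1b (boxes) and their annotated starts (arrows), in kb from the first start along the direction of transcription. The eTreg-specific site of each gene lies upstream, at 4682 bp from the start of Tnfrsf9 and 7758 bp from that of Tnfrsf1b.

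These positions can be set beside those of the other sites. Of the 2760 genes with a site, 23.6% had an eTreg-specific one, 36.9% had 2 or more sites of any class and 18.9% had 3 or more. Among the 673 eTreg-specific sites whose gene has a start in the promoter table, the median distance from centre to nearest start was 31023 bp, 12.8% lay within 5 kb and 20.4% within 10 kb. The eTreg-specific sites of Tnfrsf9 and Tnfrsf1b were both within 10 kb. These are descriptions of where the listed sites lie, and nothing was tested on them.

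All 4 genes are on chromosome 4. Tnfrsf1b (145212368 to 145246870) and Tnfrsf9 (150920155 to 150946104) are separated by 5.67 Mb. Tnfrsf4 (156013595 to 156016613) and Tnfrsf18 (156026322 to 156028894) are neighbours, 9.71 kb apart. The nearest listed site to this pair is a common site inside Sdf4 (156003963 to 156004363), 9432 bp from Tnfrsf4 and 22159 bp from Tnfrsf18. In the libraries numbered 1 its normalised read count was 54.6 with WT Foxp3, 5.25 with R397W Foxp3, 13.2 with WT IgG and 0 with R397W IgG. In those numbered 2 it was 69.4 with R397W IgG and 0 with the others. Its highest value came from an IgG library, and the Foxp3 and IgG groups overlapped in both genotypes.

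The promoters of the 2 genes that had sites are printed because the sites lie on either side of them. Each line gives the 250 bases before an annotated start from RefSeq (GRCm38.p6), 5′ to 3′ on the gene's strand, with motif matches in capitals. The motifs searched on both strands were TGTTTAC (forkhead), TGANTCA (AP-1), GGGA followed by any 4 bases and CC (NF-kB), and 3 copies of TTTG in a row (a repeat). The first 2 windows had no match.
Tnfrsf1b, start 1 (chr4:145246871-145247120, minus strand): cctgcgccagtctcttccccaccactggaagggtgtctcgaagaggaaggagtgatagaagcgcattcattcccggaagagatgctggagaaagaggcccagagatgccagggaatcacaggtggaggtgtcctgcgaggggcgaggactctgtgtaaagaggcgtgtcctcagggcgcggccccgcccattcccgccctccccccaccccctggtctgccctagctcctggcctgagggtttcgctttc
Tnfrsf9, start 1 (chr4:150919905-150920154, plus strand): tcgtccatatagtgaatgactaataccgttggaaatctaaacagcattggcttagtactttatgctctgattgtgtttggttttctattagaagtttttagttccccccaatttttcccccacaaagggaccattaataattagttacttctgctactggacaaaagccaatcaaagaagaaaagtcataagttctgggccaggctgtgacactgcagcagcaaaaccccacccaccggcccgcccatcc
Tnfrsf9, start 2 (chr4:150927749-150927998, plus strand): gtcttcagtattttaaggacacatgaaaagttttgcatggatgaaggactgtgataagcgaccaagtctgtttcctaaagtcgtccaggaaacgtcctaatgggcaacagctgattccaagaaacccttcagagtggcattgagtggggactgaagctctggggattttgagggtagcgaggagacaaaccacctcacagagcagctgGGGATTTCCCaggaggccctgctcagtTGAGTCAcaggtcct

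The window before the second Tnfrsf9 start held an AP-1 match, TGAGTCA, that began 15 bases before the start, and an NF-kB match, GGGATTTCCC, that began 42 bases before it and matched on both strands. These matches did not overlap. Windows of the same length before all 32851 RefSeq starts in the table held the AP-1 motif in 6.75% of cases, the NF-kB motif in 17.6%, the forkhead motif in 3.17% and the repeat in 0.591%. The windows before the Tnfrsf4 and Tnfrsf18 starts held none of the 4 motifs. No listed site overlapped any of the 5 windows of the 4 genes. A match of letters is not a bound site, and the sequences of the binding sites themselves were not used here.

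Coverage set what could be seen at these sites. Reads in all listed sites ranged from 111274 to 394196 per library, which are sums over sites and not library depths. The share of all sites without reads was 3.13% to 27.0% in the libraries numbered 1 and 44.4% to 66.8% in those numbered 2. Of the 5 receptor sites, none lacked reads in any library numbered 1. Without reads were 1 in WT Foxp3 replicate 2, 4 in R397W Foxp3 replicate 2, 3 in WT IgG replicate 2 and 1 in R397W IgG replicate 2. The corresponding share over all sites in R397W Foxp3 replicate 2 was 55.5%, with 281252 reads in sites. In R397W Foxp3 replicate 1 it was 15.7%, with 111274 reads. None of the 5 sites had reads in all 8 libraries, which 17.0% of all sites did. A site without reads can still hold up to 3 reads at its true mean, which in R397W Foxp3 replicate 2 equals a normalised read count of 1.93 at common and 2.34 at eTreg-specific sites. Such limits cover counting error only, since the reads are PCR products without molecular identifiers.

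The first comparison asks how far the Foxp3 signal in WT cells stood above IgG. At the upstream Tnfrsf9 site WT Foxp3 gave normalised read counts of 183 and 46.4 (replicates 1 and 2), whereas WT IgG gave 37.7 and 0. Both Foxp3 libraries lay above both IgG libraries, and the ratio of Foxp3 to IgG was 4.84 in replicate 1. The mean was 115 ± 96.4 with anti-Foxp3 and 18.9 ± 26.7 with IgG (SD, n = 2), a log2 difference of 3.91 (SE 2.96) on the log2(value + 1) scale, which did not pass in limma (adjusted p = 0.991). Groups separated in this way, with Foxp3 higher, at 19.5% of all sites, and of the 5 receptor sites it was the only one.

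At the first internal Tnfrsf9 site the signal was strong with both antibodies. WT Foxp3 gave 142 and 113 normalised reads (replicates 1 and 2), and WT IgG gave 128 and 81.1. The groups overlapped, and the ratios of Foxp3 to IgG were 1.11 and 1.39. The log2 difference was 0.31 (SE 2.16, limma adjusted p = 1), and it became −0.14 when reads were scaled to equal totals. The second internal site was weaker, where WT Foxp3 gave 52.2 and 14.4 and WT IgG gave 35.7 and 0. Here too the groups overlapped, and the log2 difference of 2.24 (SE 3.18) did not pass (limma adjusted p = 0.991).

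Upstream of Tnfrsf1b WT Foxp3 gave 151 and 116 (replicates 1 and 2), and WT IgG gave 146 and 14.1. In replicate 1 the antibodies gave nearly the same value, a ratio of 1.03, whereas the ratio was 8.20 in replicate 2. The log2 difference was 1.50 (SE 1.73, limma adjusted p = 0.991). The common site downstream of Tnfrsf1b was weaker in WT Foxp3 than both common sites of Tnfrsf9. WT Foxp3 gave 27.9 and 0 there and WT IgG 13.9 and 0, with a log2 difference of 0.48 (SE 3.26, limma adjusted p = 1). Over all sites 0.0725% passed in WT, 4 of 5521, and 0 of the 5 receptor sites did. The fitted difference was above 0 at all 5 receptor sites and at 74.3% of all sites, with a median of 1.50 and 1.27. Of these 4 calls 0 were left when WT IgG replicate 2 or any single R397W library was dropped, and 0 were made by edgeR and DESeq2. Dropping WT Foxp3 replicate 1 gave 34 calls, dropping WT Foxp3 replicate 2 gave 189, and dropping WT IgG replicate 1 gave 29. Without WT IgG replicate 2 the fitted difference stayed above 0 at 1 of the 5 receptor sites, the upstream Tnfrsf9 site.

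**Figure D2:**
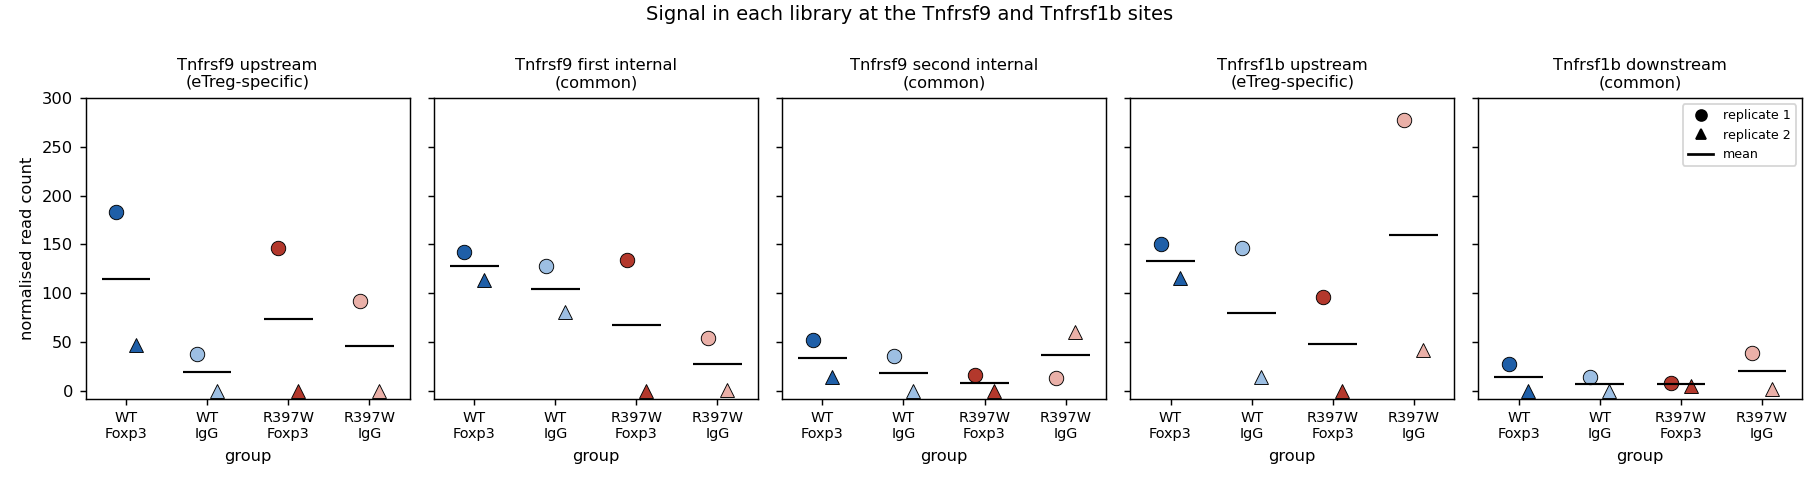
Normalised read count (vertical axis) at each of the 5 sites in the 8 libraries, with circles for replicate 1, triangles for replicate 2 and a line for the mean of each group. At the upstream Tnfrsf9 site both WT Foxp3 libraries (183 and 46.4) lie above both WT IgG libraries (37.7 and 0), and at the upstream Tnfrsf1b site the highest value, 278, belongs to R397W IgG replicate 1.

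The strength of each site can be read against the other sites of its class within a library, where the authors' scaling cancels. The upstream Tnfrsf9 site ranked 15 of the 947 eTreg-specific sites in WT Foxp3 replicate 1, 118 in WT Foxp3 replicate 2 and 12 in R397W Foxp3 replicate 1. Its IgG ranks were lower, namely 205 (WT) and 83 (R397W) in replicate 1. The upstream Tnfrsf1b site ranked 25 and 27 of the 947 in WT Foxp3 and 38 in R397W Foxp3 replicate 1, but 15 in WT IgG replicate 1 and 2 in R397W IgG replicate 1. In WT IgG replicate 2 the Tnfrsf1b site ranked 162. Both sites were thus among the strongest eTreg-specific sites in the Foxp3 libraries numbered 1, where the Tnfrsf1b site was placed higher still with IgG.

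The common sites were more spread out. The first internal Tnfrsf9 site exceeded 89.4% of the 3847 common sites in WT Foxp3 replicate 1, 89.6% in WT Foxp3 replicate 2 and 89.1% in R397W Foxp3 replicate 1. In WT IgG it exceeded 92.9% (replicate 1) and 86.4% (replicate 2), and in R397W IgG 65.8% and 55.9%. The last value is 1 read, in a library where 55.9% of common sites had none. The second internal site exceeded 56.1% and 55.6% of common sites in the WT Foxp3 libraries, and 30.8% in R397W Foxp3 replicate 1. The site downstream of Tnfrsf1b exceeded 35.4% in WT Foxp3 replicate 1 and 21.5% in R397W Foxp3 replicate 1. In the libraries numbered 2 it had no reads in WT Foxp3 and exceeded 56.6% in R397W Foxp3, and in R397W IgG it exceeded 55.4% and 58.0%. The 56.6% came from 8 reads and the 58.0% from 3, in libraries where 52.8% and 55.9% of common sites had none. No test was made of these ranks.

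**Figure D3:**
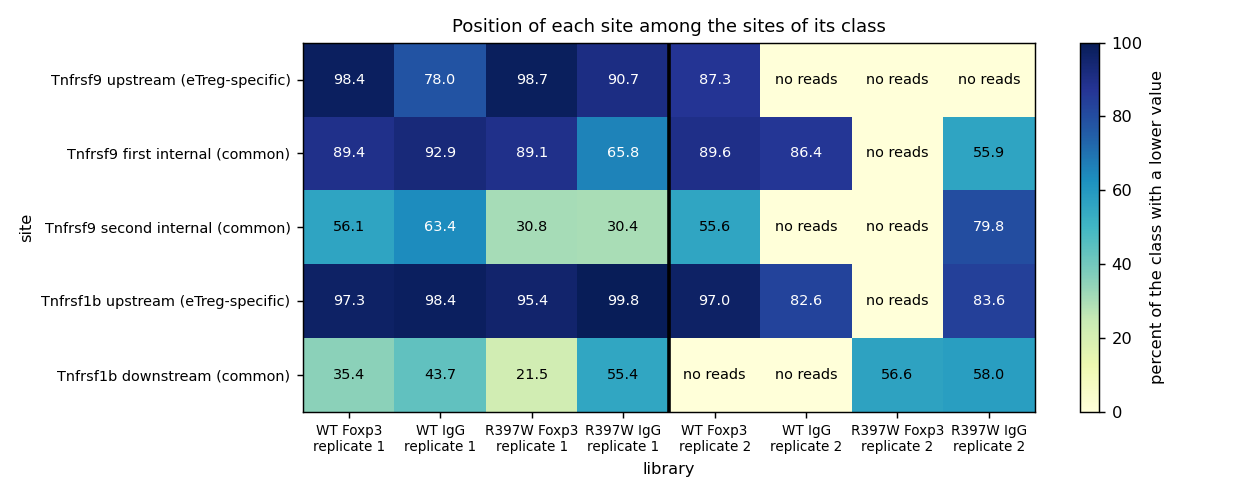
Percent of the sites of the same class with a lower value (colour and number) for each of the 5 sites (rows) in each library (columns), with replicate 1 on the left and replicate 2 on the right of the line. The upstream Tnfrsf9 and Tnfrsf1b sites stand at 87.3% or above in every Foxp3 library that has reads there, and 4 of the 5 sites have no reads in R397W Foxp3 replicate 2. Sites without reads count as lower, so 1 read at the first internal Tnfrsf9 site stands at 55.9% in R397W IgG replicate 2.

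The comparison of genotypes asks whether the R397W form gave less Foxp3 signal at these genes. No receptor site passed in limma. The size of the difference varied between the libraries numbered 1 and 2, and downstream of Tnfrsf1b its direction did too. At the upstream Tnfrsf9 site R397W Foxp3 had 147 and 0 (replicates 1 and 2) against 183 and 46.4 in WT. The groups overlapped, since the R397W value of 147 exceeded the lower WT value. The means were 73.3 ± 104 and 115 ± 96.4 (SD, n = 2), with a log2 difference, R397W minus WT, of −2.94 (SE 2.45, limma adjusted p = 1). The R397W to WT ratio in replicate 1 was 0.802. The log2 difference was −0.65 in edgeR and in DESeq2. It was 0.66 in limma when R397W Foxp3 replicate 2, the library at 0, was dropped.

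At the first internal Tnfrsf9 site R397W Foxp3 had 134 and 0 against 142 and 113 in WT, a ratio of 0.944 in replicate 1. The log2 difference was −3.46 (SE 2.30, limma adjusted p = 1), and it was 0.079 when the R397W library without reads was dropped. At the second internal site R397W had 15.8 and 0 against 52.2 and 14.4, a ratio of 0.302 in replicate 1 with 6 reads behind the R397W value. The log2 difference was −2.81 (SE 3.25, limma adjusted p = 1). At all 3 Tnfrsf9 sites the genotypes overlapped.

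Upstream of Tnfrsf1b the groups did not overlap. R397W Foxp3 had 96.4 and 0 against 151 and 116 in WT (replicates 1 and 2), with means of 48.2 ± 68.1 and 133 ± 24.6 (SD, n = 2). The ratio was 0.639 in replicate 1. The log2 difference of −3.75 (SE 2.22) did not pass (limma adjusted p = 1). It was −0.45 when R397W Foxp3 replicate 2, the library at 0, was dropped, −1.49 in edgeR and −1.48 in DESeq2. Groups separated with R397W lower at 12.6% of all sites and with R397W higher at 6.43%. Of the 5 receptor sites 1 was separated with R397W lower and 0 with R397W higher. Downstream of Tnfrsf1b R397W had 7.88 and 5.15 against 27.9 and 0, from 3 and 8 reads against 23 and 0. The ratio in replicate 1 was 0.282. These groups overlapped, with a log2 difference of 0.46 (SE 3.63, limma adjusted p = 1) that turned to −1.09 in edgeR and −1.10 in DESeq2.

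Over all sites the background of calls between genotypes was 0% in limma, edgeR and DESeq2, and 0 of the 5 receptor sites were called by any of them. In the main fit limma gave 18 sites at unadjusted p under 0.05, or 0.326%, with 0 receptor sites among them. With the lowest 25% of sites removed, the unadjusted limma p was 0.0409 at the first internal Tnfrsf9 site and 0.0342 upstream of Tnfrsf1b. Neither site passed after adjustment, and the share of all sites under 0.05 with that filter is not given here. The fitted difference was below 0 at 4 of 5 receptor sites and at 60.4% of all sites, and the median was −2.94 over the receptor sites and −0.39 over all sites. At equal totals the medians were −2.99 and −0.30, in edgeR −1.09 and −0.29, and in DESeq2 −1.10 and −0.32. With R397W Foxp3 replicate 2 dropped these became 0.079 and 0.43, and the difference stayed below 0 at 2 of the 5 receptor sites, the second internal site of Tnfrsf9 and the upstream site of Tnfrsf1b. Without WT Foxp3 replicate 2 the count of called sites was 643, with 0 receptor sites among them. WT then has 1 library, which is assumed to vary like the R397W libraries, and the spread comes from the R397W pair alone. At the 3070 sites with reads in WT Foxp3 replicate 2, 38.0% had none in R397W Foxp3 replicate 2, as did 4 of the 4 receptor sites of that kind. R397W Foxp3 replicate 2 had more reads in sites than R397W Foxp3 replicate 1, 281252 against 111274, spread over fewer sites. This narrower coverage and less Foxp3 at these sites cannot be told apart.

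**Figure D4:**
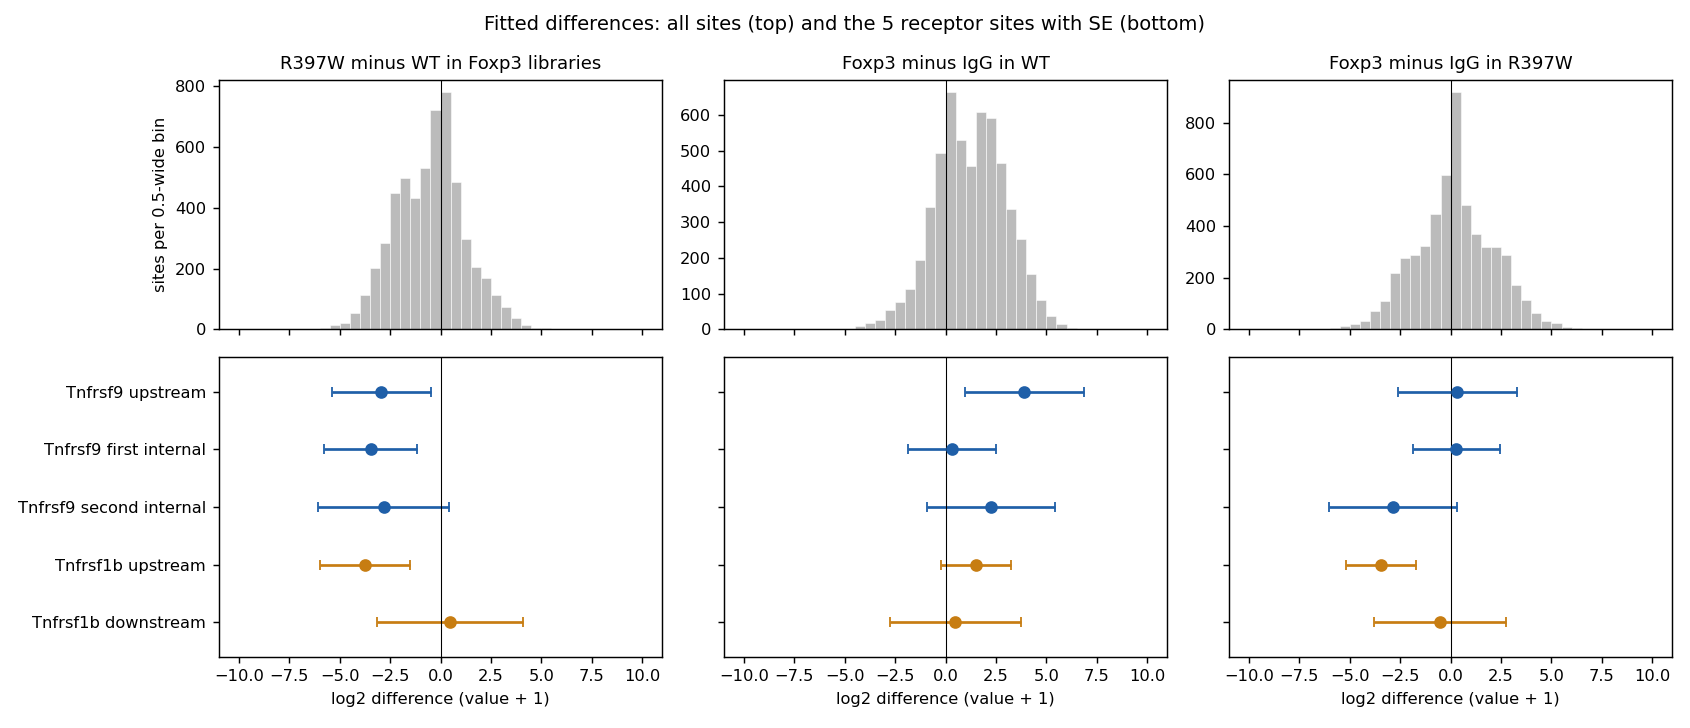
Fitted log2 differences on the log2(value + 1) scale for 3 comparisons, as histograms over all 5521 sites (top) and as points with SE for the 5 receptor sites (bottom). Between genotypes 4 of the 5 points lie below 0, with SE from 2.22 to 3.63, and none passed in limma.

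In R397W cells the Foxp3 signal was also set against IgG. At the upstream Tnfrsf9 site Foxp3 had 147 and 0 and IgG 91.7 and 0 (replicates 1 and 2), a ratio of 1.60 in replicate 1 where the same ratio in WT was 4.84. The log2 difference was 0.34 (SE 2.96, limma adjusted p = 1). At the first internal site Foxp3 had 134 and 0 and IgG 54.3 and 0.636, with a log2 difference of 0.29 (SE 2.16, limma adjusted p = 1). At the second internal site IgG replicate 2, at 59.8, was the highest R397W value, against 15.8 and 0 with anti-Foxp3 and 13.6 in IgG replicate 1 (log2 difference −2.86, SE 3.18, limma adjusted p = 1). Foxp3 and IgG overlapped at each of these sites.

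Upstream of Tnfrsf1b IgG exceeded Foxp3 in both R397W pairs, with 278 and 41.9 against 96.4 and 0 (replicates 1 and 2). The groups still overlapped. The log2 difference of −3.47 (SE 1.73) had an unadjusted p of 0.0454 and did not pass (limma adjusted p = 1). The unadjusted p in limma was 0.0768 with a pseudocount of 5 and 0.0525 with a replicate block. It was 0.0366 with a pseudocount of 0.5, 0.0448 with the lowest 25% of sites removed and 0.0478 at equal totals. The difference was −1.74 in edgeR and in DESeq2 (unadjusted p = 0.255 and 0.427), and −0.17 when R397W Foxp3 replicate 2 was dropped. Downstream of Tnfrsf1b IgG had 38.5 and 1.91 and Foxp3 7.88 and 5.15, a log2 difference of −0.54 (SE 3.26, limma adjusted p = 1). Over all sites 0% passed in R397W, and 31 sites, or 0.561%, were lower with anti-Foxp3 at unadjusted p under 0.05. The median difference was −0.54 over the receptor sites and 0.05 over all sites.

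A direct test asked whether Foxp3 over IgG differed between genotypes, and 0% of all sites passed in limma, edgeR or DESeq2. The receptor sites gave log2 values of −3.57 (SE 4.19) and −5.10 (SE 4.49) at the upstream and the second internal site of Tnfrsf9, −0.026 (SE 3.06) at its first internal site, and −4.97 (SE 2.45) and −1.02 (SE 4.61) upstream and downstream of Tnfrsf1b (limma adjusted p = 1 for each). All 5 were below 0, as were 65.7% of all sites, and the first internal site turned to 0.23 at equal totals and 1.00 in edgeR. The upstream Tnfrsf1b site had an unadjusted p of 0.0428 in limma, and 76 sites, or 1.38%, were lower at unadjusted p under 0.05. Its unadjusted p in limma was 0.0813 at equal totals and 0.0501 with a replicate block. With pseudocounts of 0.5 and 5 it was 0.0409 and 0.0489, and with the lowest 25% of sites removed it was 0.0422. In edgeR and DESeq2 the unadjusted p was 0.244 and 0.423, and the difference was −2.47. The difference was −1.66 when R397W Foxp3 replicate 2 was dropped. Its Foxp3 value exceeded IgG in both WT pairs and lay below it in both R397W pairs, which 4.31% of all sites did and 1 of the 5 receptor sites. In WT pair 1 the excess depended on the deposited scaling, with 174 reads for Foxp3 and 232 for IgG.

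The rest of the pathway was described from a list of 54 other genes. Of 24 other TNF receptor family genes 6 had sites, 10 in all (9 common, 0 cTreg-specific and 1 eTreg-specific). Of 18 genes of TNF family ligands 6 had 16 sites (12 common, 2 cTreg-specific and 2 eTreg-specific), and of 12 adaptor genes, such as the TRAF genes, 3 had 1 site each. In limma 0 of these sites passed between genotypes, over IgG in either genotype or in the difference between these, and 0 had an unadjusted p under 0.05, which 0.326% of all sites had between genotypes, 2.57% and 1.47% over IgG in WT and R397W, and 1.65% in the difference between these. The median log2 difference, R397W minus WT, was −1.52 for the other receptors, −0.39 for the ligands and −1.58 for the adaptors, beside −0.39 over all sites.

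By deposited values compared over classes, the strongest WT Foxp3 site of the other receptors was a common site 8059 bp from Tnfrsf14, which encodes HVEM, a receptor for the ligand LIGHT. WT Foxp3 gave 350 and 36.8 there (replicates 1 and 2) and R397W Foxp3 gave 152 and 1.93. WT IgG gave 72.0 and 0, and R397W IgG 72.4 and 0. The genotypes overlapped. Among the ligands it was a common site 124 bp from Ltb, which encodes lymphotoxin beta, where WT Foxp3 gave 147 and 213 and R397W Foxp3 gave 173 and 206. WT IgG gave 158 and 52.2 there, R397W IgG 192 and 139. Ltb had reads in all 8 libraries and close Foxp3 values in the genotypes. Among the adaptors it was a common site inside Birc2, which encodes the ubiquitin ligase cIAP1, where WT Foxp3 gave 71.6 and 4.66 and R397W Foxp3 gave 44.6 and 0. WT IgG gave 44.9 and 0 there, and R397W IgG 31.7 and 0. Foxp3 and IgG overlapped at this site in both genotypes.

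The pattern over the 8 libraries was compared between genes by Pearson's r, on log2 values centred within each library and class and averaged over a gene's sites. Among 522 other genes with 3 or more sites, Il16 (r = 0.911) and Rnf19a (r = 0.909) were most like Tnfrsf9. Among 523 genes, Rtkn2 (r = 0.878) and Clk1 (r = 0.868) were most like Tnfrsf1b, and r between Tnfrsf9 and Tnfrsf1b was 0.617. These values describe 8 libraries that share coverage and antibody, and high values arise easily among so many genes.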

How the data were processed

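The deposited signal is a normalised read count per site and library, which the file names call spike-in normalised. Among tools and builds, DiffBind 3.12.0, Bowtie2 2.5.2, mm10 and dm6 are listed without roles in the submitters' processing notes. Site calling and duplicate removal are not given in the sources used here. Fixation was with 0.1% formaldehyde for 2 minutes and amplification took 14 to 15 PCR cycles, per the labels' protocols. In every column 100% of values were whole multiples of one read (tolerance 0.01), so whole reads were recovered. Some columns of the cTreg- and eTreg-specific files hold few low values, so the recovery rests on less there. One read was worth a different value in each of the 3 files (in WT Foxp3 replicate 1, 1.21 at common and 0.866 at eTreg-specific sites), so levels were compared within a class, except in picking the strongest pathway sites.

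Differences were tested with limma 3.58.1 in R 4.3.3 (trended, two-sided) on log2(value + 1) of all 5521 sites, with Benjamini-Hochberg adjustment and a threshold of 0.05. Such differences understate the change of weak sites. Genotypes were compared in the 4 Foxp3 libraries, and Foxp3 with IgG in all 8, with no block for the replicate number. Alternatives were edgeR 4.0.16 and DESeq2 1.42.0 on recovered reads with the deposited factors, other pseudocounts and scalings, a filter, a block and each library left out. The limma script was run on simulated data as a check of the code, and its power is not given here. Genes came from RefSeq (GRCm38.p6), where 4 of 4 members and all listed pathway genes were found, and starts from its promoter table. All member sites are named. Of the pathway list, the site with the highest WT Foxp3 mean among receptors, ligands and adaptors is named, and the 2 genes most like each member by r. The members and lists were chosen with earlier results of these data known.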

Additional observations from a re-analysis of the deposited data

Results flagged for a closer look

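At the upstream Tnfrsf1b site Foxp3 exceeded IgG in both WT pairs of libraries with the same number, by 4.84 and 102 normalised reads, and lay below it in both R397W pairs, by 181 and 41.9. The difference between genotypes in Foxp3 minus IgG was −4.97 on the log2 scale and did not pass in limma (adjusted p = 1). By deposited values this opposite pattern was present at 4.31% of all sites and at 1 of the 5 receptor sites. In WT pair 1 the excess depended on the deposited scaling. The recovered reads there were 174 of 43752 at eTreg-specific sites with anti-Foxp3 and 232 of 35388 with IgG. With IgG, R397W replicate 1 had the second highest of the 947 eTreg-specific values there, 278, and R397W Foxp3 replicate 2 had no reads. With R397W IgG replicate 1 left out the difference was −3.62, and with R397W Foxp3 replicate 2 left out it was −1.66. Leaving out each of the 8 libraries in turn gave −8.27 to −1.66. The part of either library in the difference was not tested further.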

How the results depend on the processing

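The same 5 sites belonged to the members with a 10 kb limit and without widening of gene bodies. The 20 differences (5 sites in 4 comparisons) kept their direction and stayed uncalled in 132 of 140 values under other pseudocounts, filter, scaling, tests or block. The 8 reversals, whose cause was not tested, were at 2 sites. Downstream of Tnfrsf1b, R397W minus WT in Foxp3 was −0.17 with a pseudocount of 5, −1.09 in edgeR and −1.10 in DESeq2. At the first internal Tnfrsf9 site, Foxp3 minus IgG in WT was −0.14 at equal totals, and the genotype difference was 0.22 with a pseudocount of 5, 0.23 at equal totals, and 1.00 in both edgeR and DESeq2. With a library left out, 119 of 140 values kept their direction, 21 reversed and 0 were called.

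The ranges with a library left out were as follows, first for the differences that reversed. R397W minus WT in Foxp3 ran from −1.97 to 2.89 downstream of Tnfrsf1b, −7.00 to 0.079 at the first internal and −6.54 to 0.66 at the upstream Tnfrsf9 site. Foxp3 minus IgG in WT ran from −1.95 to 2.91 downstream and −0.14 to 3.14 upstream of Tnfrsf1b, and −0.0094 to 0.64 and −0.36 to 4.84 at the first and second internal Tnfrsf9 sites. In R397W it ran from −2.42 to 1.35 downstream of Tnfrsf1b, −3.25 to 3.83 at the first internal and −3.27 to 3.94 at the upstream Tnfrsf9 site. The genotype difference ran from −3.44 to 1.41, −3.56 to 3.51 and −7.17 to 0.031 at these sites. The other differences kept their direction but moved in size. R397W minus WT in Foxp3 ran from −4.84 to −0.77 at the second internal Tnfrsf9 site and −7.06 to −0.45 upstream of Tnfrsf1b. Foxp3 minus IgG ran from 1.27 to 6.54 at the upstream Tnfrsf9 site in WT, and in R397W from −4.90 to −0.83 and −6.77 to −0.17 at the second internal Tnfrsf9 and the upstream Tnfrsf1b site. The genotype difference at these 2 sites ran from −7.70 to −2.51 and −8.27 to −1.66.

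Over all sites, calls between genotypes were 0 and ranged from 0 to 643 with a library left out, those over IgG in WT were 4 and ranged from 0 to 189, those over IgG in R397W were 0 throughout, and those for the genotype difference were 0 and ranged from 0 to 182. The WT count over IgG was 0 with a pseudocount of 5, at equal totals, in edgeR, in DESeq2 and with the replicate block. The block gave 0 calls in each comparison. Replicate differences correlated across sites at 0.167 between genotypes, and at 0.0375 and 0.135 between antibodies in WT and R397W. These values cannot show whether libraries are paired, since 44.4% to 66.8% of sites had no reads in the libraries numbered 2. The main fits used no block. The titles give the Foxp3 and IgG libraries of a number the same sample name, which may mean the same cell sample, and the labels do not state it. With a library left out, its group has 1 library that is assumed to vary like the other groups. Library depth was not measured, and the share of sites without reads was higher in the libraries numbered 2.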
